A study of Homo sapiens with 2 samples.

Results

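RBMS3-binding sites were examined in the transcripts of 10 receptor tyrosine kinases: EGFR, MET, AXL, ERBB2, IGF1R, INSR, EPHA2, EPHB4, FGFR1 and DDR2. The members were fixed by gene name, and every site of the pooled list that lay in one of these genes on the transcribed strand (GENCODE release 44, hg38) was taken. The rule gave 52 of the 27706 sites in the list, in 8 of the 10 genes. ERBB2 and EPHB4 had no listed site in any part of the gene.

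The contacts of RBMS3 with RNA were read in MDA-MB-231 cells by CLIP-seq. MDA-MB-231 is a widely used triple-negative breast cancer line of human origin. All libraries came from cells that carried FLAG-tagged RBMS3, introduced stably with a lentiviral vector as an N-terminal fusion, so the values describe an added, tagged protein in a single line. Protein was crosslinked to RNA with ultraviolet light, pulled down by its tag, and the attached RNA was sequenced in 2 biological replicates of a single group. The tags of both replicates were pooled before sites were called, so the values carry no replicate error, and libraries of a control were not analysed here.

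Receptor tyrosine kinases are membrane proteins that dimerize when a ligand binds outside the cell and then phosphorylate tyrosines on themselves and on adaptors, which start the RAS-MAP kinase and PI3-kinase cascades. In basal-like breast cancer cells they can drive growth, survival and movement. RBMS3 is a protein with RNA recognition motifs that binds A- and U-rich sequence and is known for binding the 3′ untranslated region (3′UTR) of mRNAs. Most mRNAs end shortly after a poly(A) signal, AAUAAA or a close relative of it, which the cleavage machinery reads before the tail is added.

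A site is the position of a deletion in the sequenced tags, which the method reads as the base where the reverse transcriptase met the remnant of the crosslinked protein, although deletions can arise in other ways. Each site has 2 values, its covering tags and those among them with the deletion, and the percentage of tags with the deletion follows from them. Intervals given for a percentage are 95% Wilson intervals. For the percentage of tags at a site they cover the counting error of the pooled tags only. For a share of sites they count sites as independent draws, and can be too narrow where sites neighbour each other. Sites within 50 nt of each other share tags and sequence and are not independent, so they were also joined into clusters, each represented by its site with the most deletions.

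The sequences on which the results turn are shown from the hg38 reference in the direction of the transcript, written as DNA, with the deleted base in capitals. They comprise the site with the most deletions in each gene, further sites in EGFR and MET that lie at a poly(A) signal, and no sequence for FGFR1.
EGFR, 10 nt before the end, chr7:55211604-55211633, plus strand: ataataatgtattcTttgttaacaatgcca
EGFR, 78 nt before the end, chr7:55211536-55211565, plus strand: gtgcattgagtattAaaaaattagatgtat
EGFR, internal, chr7:55207310-55207339, plus strand: aaaataaaactataTtcatttccactctat
MET, 39 nt before the end, chr7:116798324-116798353, plus strand: tcgtatgttaatagTtgttctgataaatca
MET, 20 nt before the end, chr7:116798343-116798372, plus strand: ctgataaatcatgcAattaaagtaaagtga
AXL, 14 nt before the end, chr19:41261738-41261767, plus strand: aggtcacataaaacTttgtatatcaacgag
IGF1R, 29 nt before the end, chr15:98964487-98964516, plus strand: aaagtactacatggTttaagttaaataaaa
EPHA2, 25 nt before the end, chr1:16124347-16124376, minus strand: atttctgctctggaAtaaagttgcagatga
INSR, internal, chr19:7116035-7116064, minus strand: tttgagaatatattTgtaccatatttaatt
DDR2, internal, chr1:162780794-162780823, plus strand: cctgtcaaagtgaaTgatatattcttgaaa
The IGF1R and EPHA2 stretches contain AATAAA, and the second MET stretch contains ATTAAA. The second EGFR stretch contains ATTAAA, with the deletion in a run of 6 A that opens with its AAA and reaches past it. The third EGFR stretch holds AATAAA ahead of the deletion. The AXL and DDR2 stretches contain neither signal, and the INSR stretch contains GAATATA.

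Sites in these genes lay mainly in the 3′UTR. Of the 52 sites, 45 were in the 3′UTR (86.5%, interval 74.7% to 93.3%), against 76.6% of all sites in the list. A further 6 were intronic, of which 3 were in EGFR, 2 in AXL and 1 in EPHA2, and the remaining site was in the coding sequence of AXL. None of the 52 overlapped another gene on the same strand. By gene, 8 of the 10 receptors had at least 1 3′UTR site, whereas 32.5% of the 19595 protein-coding genes with an annotated 3′UTR did. With only sites under 30% of tags deleted, 7 of the 10 had one, against 28.2%. The 10 genes were chosen with earlier results of these data known. Of 48 other receptor tyrosine kinases, 6 had a 3′UTR site (12.5%). The level of each mRNA was not measured in these libraries, and a gene without a listed site cannot be read as unbound, because the list holds only sites that passed the authors' filter.

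The number of sites per gene was uneven. EGFR held 20 of the 45 3′UTR sites, FGFR1 held 8, MET 7, IGF1R 4 and AXL 3, and INSR, EPHA2 and DDR2 held 1 each. Over all 6371 genes with a 3′UTR site the median was 2 and the maximum 42, so EGFR stood high, with 37 genes ahead of it and 0.675% of these genes at its count or above. The 45 sites joined into 18 clusters, 6 of them in EGFR, 3 each in IGF1R and FGFR1, 2 in AXL and 1 each in MET, INSR, EPHA2 and DDR2. Of the 8 receptors with a 3′UTR site, 4 had at least 2 clusters, against 36% of all genes with a 3′UTR site.

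**Figure D1:**
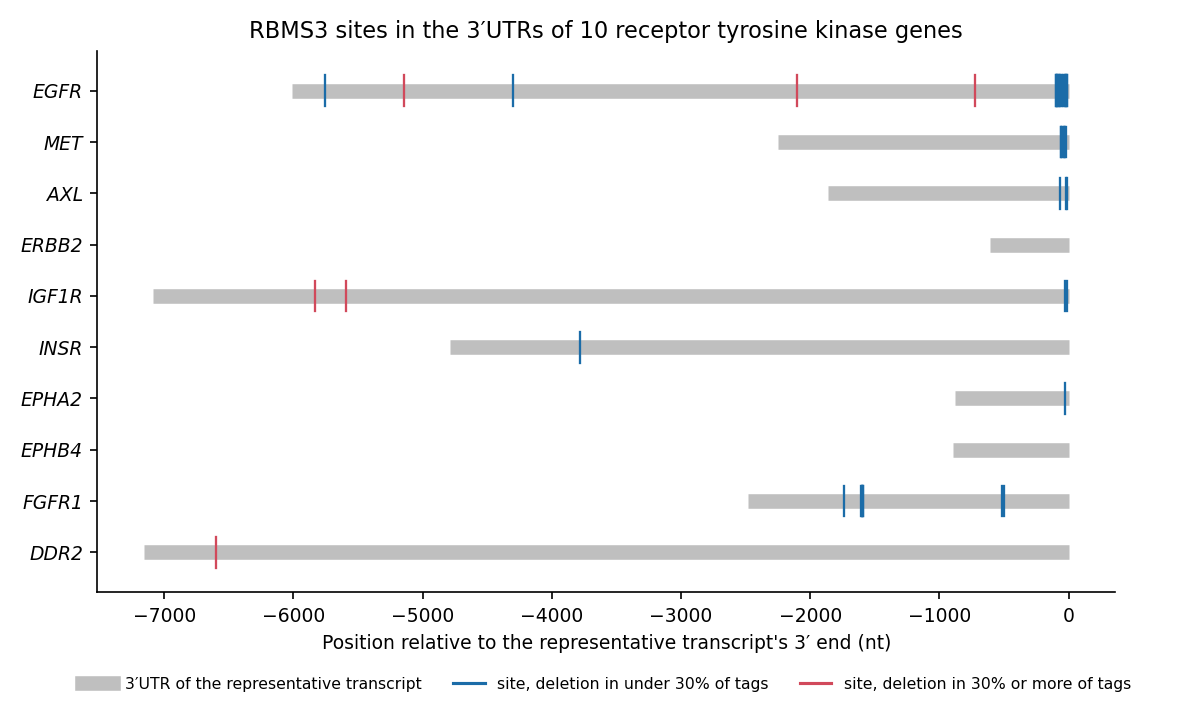
Position of the 45 3′UTR sites of the 10 receptor genes. The x axis gives the position relative to the 3′ end of the representative transcript in nt, the grey bar is the 3′UTR of that transcript, and each vertical line is a site, blue where under 30% of its tags carried the deletion and red where 30% or more did. EGFR, MET, AXL, IGF1R and EPHA2 have sites at the right end of the bar, FGFR1 has its sites before that end, and ERBB2 and EPHB4 have none.

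Most of the sites lay close to where a transcript is annotated to end. Within 100 nt of the 3′ end of an annotated coding transcript lay 35 of the 45 sites (77.8%, interval 63.7% to 87.5%), against 65.9% of all 3′UTR sites. The median distance was 39 nt, beside 38 nt over all 3′UTR sites. Counted by gene, 6 of the 8 receptors with a 3′UTR site had a site in that range, against 78.5% of all genes with a 3′UTR site. Counted by cluster, 8 of 18 were in that range (44.4%), against 55.9% of all clusters. The EGFR and MET ends hold 15 and 7 sites in a single cluster each. The 6 sites with 30% or more of their tags deleted each formed a cluster of their own, outside that range. In the library preparation the bound RNA was tailed with A before oligo(dT) priming, and transcript ends that carried a natural tail could be primed likewise. The part of this step in the position of the sites was not tested.

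EGFR, the receptor for EGF, TGF-alpha, amphiregulin and other ligands of that family, had the most listed sites of the set. The gene (ENSG00000146648.21) spans chr7:55019017-55211628 on the plus strand, and its representative transcript EGFR-201 has a 3′UTR of 6011 nt. The last 100 nt of this 3′UTR held 15 sites with a total of 1671 deletions, of 1879 in the whole 3′UTR. They fell into 3 groups by position. The 8 sites from 98 to 65 nt before the end were covered by 15646 to 37808 tags, the 2 sites at 51 and 48 nt by 5256 and 5901 tags, and the 5 sites from 28 to 10 nt by 25602 to 27468 tags. Tag cover thus fell between 2 deep stretches and was deepest 81 nt before the end.

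Deletions did not follow the tags along the EGFR end. The site with the most deletions was 10 nt before the end, with 345 of 26822 tags (1.29%, interval 1.16% to 1.43%), in a TTT of the EGFR sequence shown first. The deepest site, 81 nt before the end, had 81 deletions in 37808 tags (0.214%). The highest percentage lay at the shallow pair, where 128 of 5901 tags carried the deletion 48 nt before the end (2.17%, interval 1.83% to 2.57%). These intervals did not overlap. In the 5 sites nearest the end the deletions numbered 205, 54, 203, 69 and 345 from 28 nt to 10 nt, although the tags there stayed between 25602 and 27468. The first 3 of these are at an A within a repeat of ATA and the last 2 at a T in the stretch rich in T that follows it.

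**Figure D2:**
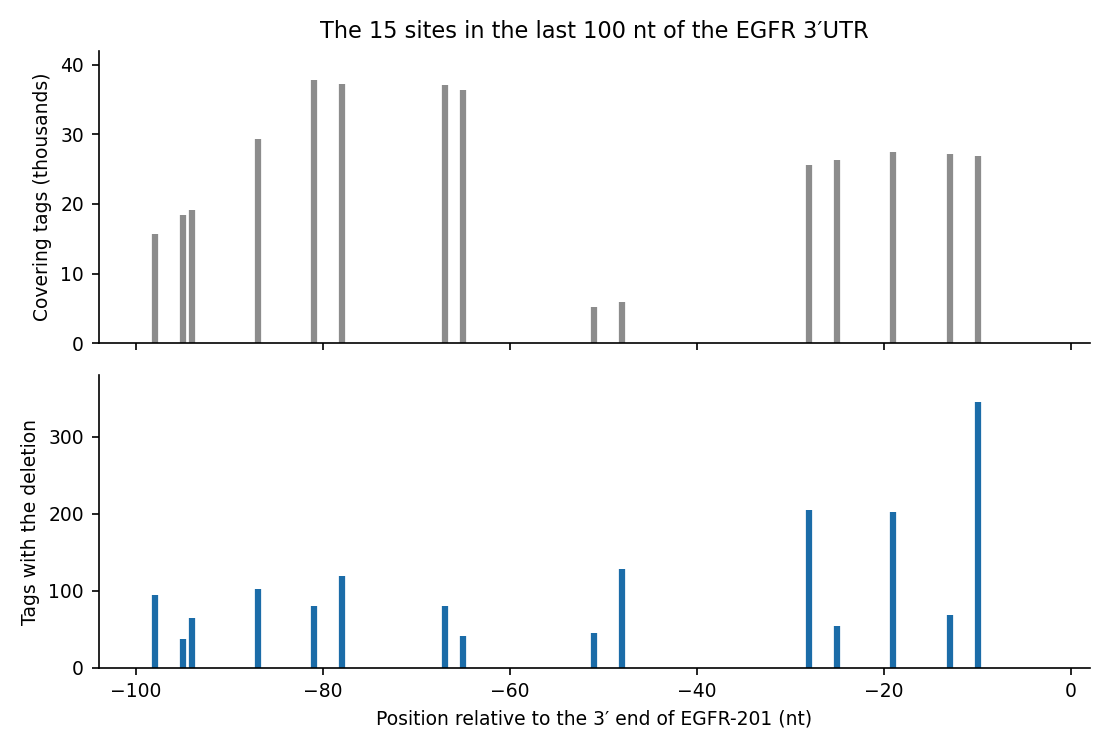
Tags and deletions at the 15 sites in the last 100 nt of the EGFR 3′UTR. The x axis is the position relative to the 3′ end of EGFR-201 in nt, the upper bars give the covering tags in units of 1000 and the lower bars the tags with the deletion. Tags are highest 81 to 65 nt before the end and drop to 5256 and 5901 at 51 and 48 nt, whereas deletions are highest, at 345, 10 nt before the end.

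The poly(A) signal nearest the EGFR sites stood further from the end than the signals at the ends of MET, IGF1R and EPHA2, which begin 19, 20 and 26 nt before them. ATTAAA began at the deleted base of the site 81 nt before the end, in the middle of the first deep stretch, and neither AATAAA nor ATTAAA occurred in the last 60 nt of EGFR-201. Another coding transcript, EGFR-205, is annotated to end 92 nt before EGFR-201, so the sites 98, 95 and 94 nt before the EGFR-201 end lie 6, 3 and 2 nt before the EGFR-205 end. The ATTAAA lies downstream of the EGFR-205 end. The other end sites, from 87 to 10 nt before the EGFR-201 end, also lie downstream of it and outside that transcript. For the tags at the 3 sites before the EGFR-205 end, which end they came from cannot be told apart in the deposited list.

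Further up the EGFR 3′UTR lay 5 single sites of 2 kinds. At 2 of them deep cover went with few deletions, 45 of 3448 (1.31%) at chr7:55205874 and 41 of 3060 (1.34%) at chr7:55207324. The latter has an AATAAA beginning 12 nt before the deletion and lies 4212 nt before the nearest end of a coding transcript, and the former is 142 nt before the end of EGFR-213, a transcript with a retained intron. At the other 3, every covering tag carried the deletion, 26 of 26, 57 of 57 and 39 of 39. The 3 intronic EGFR sites had 26 deletions in 51 tags, 12 in 12 and 16 in 16.

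MET, the receptor for hepatocyte growth factor, had a single dense cluster. The gene (ENSG00000105976.16) spans chr7:116672196-116798377 on the plus strand, and its 3′UTR of 2253 nt held 7 sites, all between 60 and 20 nt before the end shared by MET-201, MET-202 and MET-204. Tags rose toward the end, from 5496, 5628 and 6708 at 60, 59 and 54 nt, through 10532 and 10531 at 40 and 39 nt, to 14068 at 30 nt and 19442 at 20 nt. Deletions were 49, 53, 48, 45, 86, 57 and 86 in the same order. The percentages therefore ran from 0.405% to 0.942%, and the highest 2 were at the 2 sites with the fewest tags. The 2 sites with the most deletions were tied at 86, at 0.817% (interval 0.662% to 1.01%) for 39 nt and 0.442% (interval 0.358% to 0.546%) for 20 nt. The latter deletion is in an AA whose last A opens the ATTAAA of the second MET sequence. That ATTAAA begins 19 nt before the end.

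AXL, the receptor for GAS6 and a kinase linked to the mesenchymal state of carcinoma cells, had the deepest site and the most deletions at a single site. The gene (ENSG00000167601.12) spans chr19:41219223-41261766 on the plus strand, with a 3′UTR of 1862 nt. The 3 3′UTR sites lay 71, 20 and 14 nt before the end of AXL-201, with 42 deletions in 4267 tags (0.984%), 115 in 39502 (0.291%, interval 0.243% to 0.349%) and 996 in 37452 (2.66%, interval 2.50% to 2.83%). The last 2 sites are 6 nt apart and nearly equal in tags, and their deletion percentages differed far beyond the counting error. No AATAAA or ATTAAA was present within 25 nt of any of the 3 deletions. CATAAA, a variant of the signal, begins 8 nt before the leading deletion, as the AXL sequence shows. Of 6371 genes with a 3′UTR site, 151 had a deeper one than AXL and 170 a deeper one than EGFR.

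AXL was also the only one of the 10 genes with a coding-sequence site, where 13 of 13 tags carried the deletion. Its 2 intronic sites had 44 deletions in 406 tags (10.8%) and 22 in 22. The former has an AATAAA beginning 9 nt downstream.

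IGF1R and INSR encode the receptors for insulin-like growth factors and insulin, which are close relatives in sequence and signal through the IRS adaptors. They differed in where their sites lay. IGF1R (ENSG00000140443.15, chr15:98648539-98964530, plus strand) has a 3′UTR of 7088 nt and had 2 sites at its end, with 152 deletions in 4614 tags 29 nt before it (3.29%, interval 2.82% to 3.85%) and 45 in 6200 tags 17 nt before it (0.726%, interval 0.543% to 0.970%). Both windows hold AATAAA, which begins 20 nt before the end. The deletion at 17 nt falls in a run of 4 A that begins inside this signal and reaches past it. The other 2 IGF1R sites were 5829 and 5593 nt before the end, with 83 deletions in 193 tags (43.0%) at a run of 10 A and 7 in 7 tags. INSR (ENSG00000171105.14, chr19:7112255-7294414, minus strand) had 1 site in a 3′UTR of 4791 nt, 3785 nt before the end, with 32 deletions in 173 tags (18.5%, interval 13.4% to 24.9%), and none at its end.

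The AUA motif is the 7-nt pattern that the study's methods searched for, which reads A, G or T, then A or T, then ATA, then A or T, then A. It was searched on the transcript strand in the 51-nt window around each deletion. A window with AAATAAA matches it, so the motif overlaps with the poly(A) signal. Among the 45 3′UTR sites, INSR held the only match free of AATAAA, and an intronic EGFR site with 16 deletions in 16 tags held another. The INSR match is GAATATA and begins 9 nt before the deletion in the INSR sequence.

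EPHA2 and EPHB4 are receptors for ephrins, ligands that are anchored on the neighbouring cell. EPHA2 (ENSG00000142627.13, chr1:16124337-16156069, minus strand) has a short 3′UTR of 878 nt, and its single 3′UTR site lay 25 nt before the end, with 196 deletions in 4875 tags. At 4.02% (interval 3.50% to 4.61%) it had the highest percentage among the member sites near an end. The deleted A is one of the 2 that open the AATAAA, as the EPHA2 sequence shows. A second, intronic site had 9 deletions in 11 tags (81.8%). EPHB4, with a representative 3′UTR of 896 nt, had none.

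ERBB2, a relative of EGFR with no known ligand that is amplified in another class of breast cancer and not in triple-negative disease, likewise had no site. Its representative 3′UTR is 614 nt long, the shortest of the 10, although the 3′UTRs of all its transcripts together cover 4349 nt. The same union covers 2325 nt for EPHB4. Over the genome, protein-coding genes without a 3′UTR site had a median of 1432.5 nt of merged 3′UTR and those with a site 2675 nt. EPHA2, whose merged 3′UTR covers 878 nt, had a site. Whether 3′UTR length bears on the missing sites was not tested.

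FGFR1, a receptor for fibroblast growth factors, was bound at annotated ends other than that of its representative transcript. The gene (ENSG00000077782.23, chr8:38400215-38468834, minus strand) has 58 annotated transcripts with 26 distinct ends of coding transcripts, the most of the 10 genes. None of its 8 sites lay within 100 nt of the end of FGFR1-214, the representative transcript. At the end of FGFR1-211 and FGFR1-253, 499 nt upstream of that, there were 2 sites, at 0 nt with 177 deletions in 6703 tags (2.64%, interval 2.28% to 3.05%) and at 14 nt with 37 in 6459 (0.573%). At the end of FGFR1-201 and of other coding transcripts, 1589 nt upstream, 5 sites between 4 and 18 nt had 13365 to 13779 tags and 46, 86, 112, 46 and 67 deletions, or 0.334% to 0.817%.

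The deepest FGFR1 site, with 98 deletions in 25754 tags (0.381%), lay 147 nt before the latter end and 31 nt before the end of a transcript with a retained intron. Each of the 3 places had a poly(A) signal in the windows, ATTAAA at FGFR1-211, AATAAA at FGFR1-201 and ATTAAA at the transcript with the retained intron, which begin 16, 19 and 23 nt before those ends.

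DDR2, a receptor for fibrillar collagen in cells of mesenchymal type, had a site of another kind. The gene (ENSG00000162733.19, chr1:162631373-162787405, plus strand) has the longest representative 3′UTR of the 10, 7159 nt, and its single site lay 6592 nt before the nearest end, where 30 of 30 tags carried the deletion. The window has ATATA but no poly(A) signal and no AUA match.

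**Figure D3:**
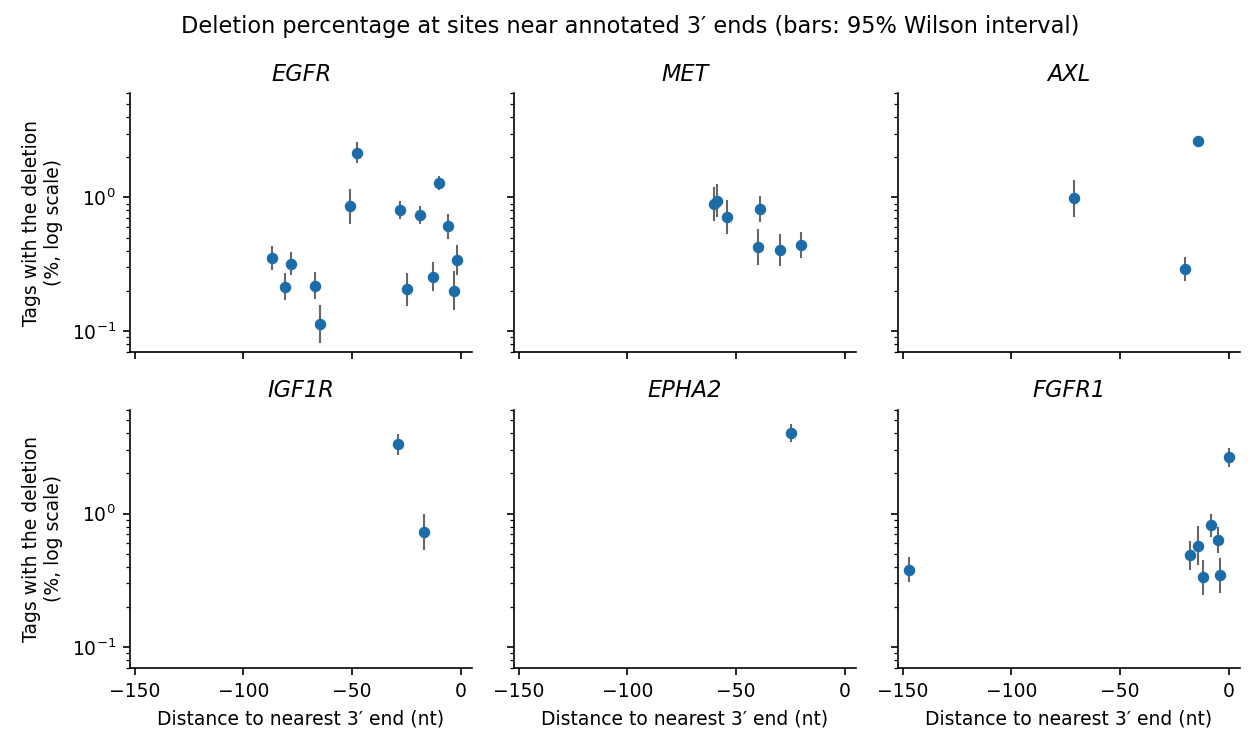
Percentage of tags with the deletion at member sites up to 150 nt before the nearest annotated end of a coding transcript, for the 6 genes that have such sites. The x axis is the distance to that end in nt (the 3 EGFR sites closest to 0 are measured to EGFR-205, the others to EGFR-201), the y axis is the percentage on a log scale, points are sites and bars are 95% Wilson intervals. Values run from 0.113% to 4.02%, and each of the 5 genes with more than 1 such site has neighbouring sites whose bars do not overlap.

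By percentage, the 45 3′UTR sites separated into 39 with under 30% of their tags deleted (86.7%, against 87.1% of all 3′UTR sites) and 6 with 30% or more. All 35 sites within 100 nt of an end were among the 39, with 4267 to 39502 tags. The 6 others had 7 to 193 tags, lay 630 to 6592 nt from an end and came from EGFR, IGF1R and DDR2. In 5 of these 6 every tag carried the deletion, or 11.1% of the 45 sites, against 6.3% of all 3′UTR sites. The percentages are bounded from below by the number of tags, since no site in the list with at least 1000 tags had fewer than 37 deletions.

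Counted by site, the receptor 3′UTR sites were deep in tags for the list, but the genes were uneven and EGFR held 20 of the 45. INSR and DDR2 were shallow, with 173 and 30 tags at their sites. Of all genes with a 3′UTR site, 86.4% and 91.0% had one at least as deep. For the deepest site of each other receptor with one, these shares ran from 2.39% to 38.9%. The median was 13365 tags per 3′UTR site, against 4927 over all 3′UTR sites, and 25 of 45 (55.6%) had at least 10000 tags, against 31.4%. The median number of deletions was nearly the same, 65 and 64, so the median percentage was lower, 0.739% against 1.96%. Among sites with at least 10000 tags the medians were 0.381% and 0.521%. EGFR supplied 13 of those 25 deep sites.

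**Figure D4:**
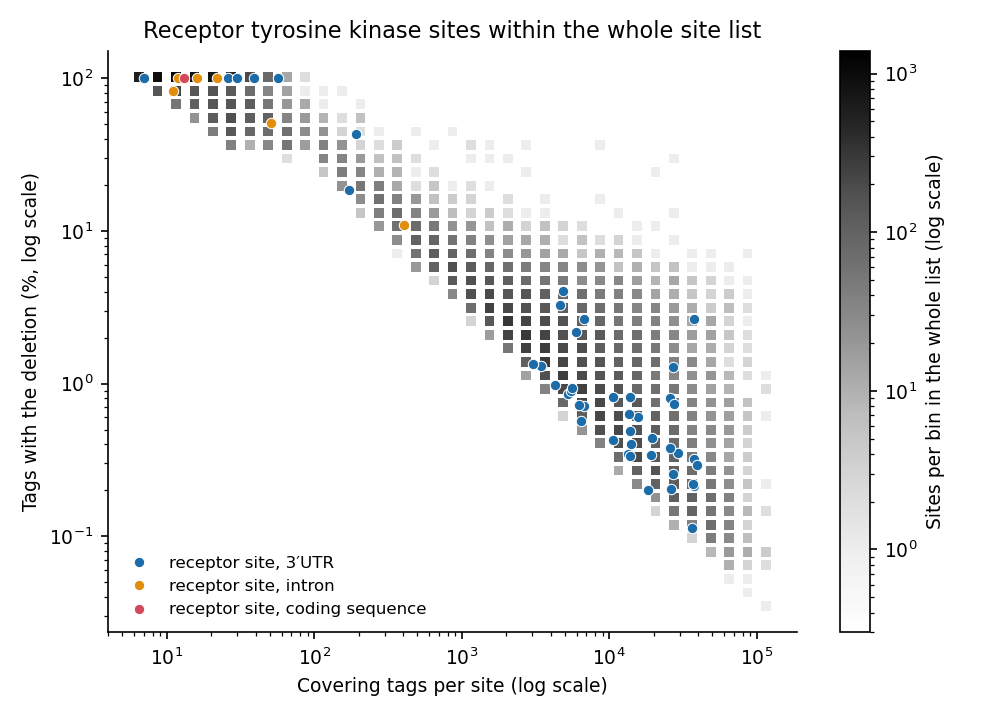
Tags and deletion percentages of the 52 receptor sites within the whole list. The x axis gives the covering tags per site and the y axis the percentage of tags with the deletion, both on log scales, grey squares show the number of sites per bin among all 27706, and points are receptor sites coloured by the part of the gene. The blue 3′UTR points lie mostly at the right and along the lower edge of the grey field, with a second, small group at 100% and few tags.

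Poly(A) signals and the AUA motif were counted in the 51-nt windows on the transcript strand. AATAAA or ATTAAA was present at 23 of the 45 member sites (51.1%, interval 37.0% to 65.04%), against 65.4% of all 3′UTR sites. The make-up differed by signal, with AATAAA at 9 sites (20%, against 52.7%) and ATTAAA at 14 (31.1%, against 16.1%). The ATTAAA windows were 8 at the EGFR end, 3 at the MET end and 3 in FGFR1. Of those in FGFR1, 1 lay 147 nt before the nearest coding end and 31 nt before that of a transcript with a retained intron. The AATAAA windows were 5 in FGFR1, 2 in IGF1R and 1 each in EGFR and EPHA2. Counted by cluster, 7 of 18 leading windows held either signal, against 60.6%.

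The AUA motif was present in 5 of the 45 member windows (11.1%, interval 4.84% to 23.5%), against 51.7% of all 3′UTR windows, and by cluster in 4 of 18, against 47.8%. The 5 windows were the 2 at the IGF1R end and 1 each in EGFR, EPHA2 and INSR. Without matches that contain AATAAA, the INSR site alone remained (2.22%, against 15.5%). The core ATATA was found in 3 windows, in INSR, FGFR1 and DDR2 (6.67%, against 14.5%). Neighbouring windows share their letters, so the 15 windows of the EGFR end, none of which holds the motif, weigh heavily in the counts by site.

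The deleted base was T at 26 of the 45 sites (57.8%, against 65.5% of all 3′UTR sites), A at 14 (31.1%, against 21.5%), G at 3 and C at 2. At 31 of the 45 the base belonged to a run of at least 2 identical bases (68.9%, against 83.6%), where the deletion cannot be assigned to a base within the run. The leading sites at the ends of EGFR, AXL and IGF1R all fell in a TTT, as their sequences show, and that of EPHA2 in an AA.

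Sites in the rest of the receptor signalling system were described from lists by role. Of the 48 other receptor tyrosine kinases, 6 had a 3′UTR site (12.5%): ROR1 with 4 sites and 451 deletions, the AXL relative MERTK with 4 and 210, EPHB2 with 2 and 176, LMTK2 with 73 deletions at 1 site, PTK7 with 64 and RYK with 45. The leading sites of ROR1, MERTK, LMTK2, PTK7 and RYK lay 8 to 35 nt before an end, and that of EPHB2 lay 6185 nt before one. Of 27 ligand genes 12 had a 3′UTR site (44.4%), with most clusters in EFNA5, an ephrin (11 sites, 5 clusters), EFNB2 (3 clusters) and FGF5 (3 clusters).

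Inside the cell, 13 of the 16 adaptors and proximal effectors had a 3′UTR site (81.3%). The 3 with the most clusters were FRS2, the docking protein of FGF receptors, with 5 clusters, the adaptor CRK and the PI3-kinase subunit PIK3CA with 3 each. Of the 15 negative regulators 11 had one (73.3%), led by the receptor phosphatase PTPRJ with 10 sites in 6 clusters and by the RAS pathway inhibitors SPRED1 with 4 clusters and SPRED2 with 3. These shares stand beside 32.5% of all protein-coding genes, and mRNA levels were not taken into account. The lists were chosen with earlier results of these data known.

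Marker genes of the line were looked up in the same list, which holds binding sites and not mRNA levels, so they do not establish the identity of the cells. Of the 5 mesenchymal and basal markers, all had a 3′UTR site, against 32.5% of all protein-coding genes, but unevenly: CAV1 had 32 sites, CD44 30 and VIM 14, LOX had 3, and SPARC had 1 with 51 deletions in 52 tags (98.1%), 2353 nt from an end. Of the 6 luminal and epithelial markers, GATA3 had 1 site with 47 deletions in 744 tags, deeper than that of SPARC, and ESR1, PGR, FOXA1, CDH1 and ERBB3 had none listed. The labels of replicate 2 name the line differently in the title and in the cell line field, and it was taken as MDA-MB-231, as in the title.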

How the data were processed

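CLIP-seq of RBMS3 fused to FLAG was done in MDA-MB-231 cells (2 biological replicates, 1 group). The authors processed the reads by means of the CLIP Tool Kit. They aligned them to hg38, collapsed them to unique tags and pooled both replicates. Sites were called from deletions under limits on the false discovery rate and on fold change. Tool versions are not given in the sources used here. The deposited values are counts of pooled tags that cover each site and of tags that carry the deletion, not normalized. Library totals were not analysed here, so depth is given per site.

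The deleted base was taken as the centre of each 21-nt interval. Sites were placed on all GENCODE release 44 transcripts on the same strand in the order 3′UTR, 5′UTR, coding sequence, noncoding exon, intron. Distances run to the nearest downstream 3′ end of a coding transcript of the gene. The representative transcript is the Ensembl canonical one. Clusters join sites within 50 nt, and windows have 25 nt on each side. With a single group and pooled replicates no test was made. Shares are set beside the same share over the whole list.

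The 10 genes, the gene lists and the alternatives were chosen with earlier results of these data known. The text names all 10 genes, the site with the most deletions in each, every site of a gene with 3 or fewer, every other receptor tyrosine kinase with a 3′UTR site, and the 3 genes per list with the most 3′UTR clusters (ties by deletions). Placement and distances were tested on simulated data, where all 2003 checks in 200 genes passed. Python 3.11.15, numpy 2.4.6, scipy 1.17.1, pysam 0.24.0 and matplotlib 3.10.9 were used.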

Additional observations from a re-analysis of the deposited data

How the results depend on the processing

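The 7 results were repeated with 37 alternative settings. Of these values, 25 stayed within the counting interval of the reported value, or within 1.5 times it for a count, and 12 moved. That interval takes sites as independent. By site the share within 100 nt of an end was above the 65.9% of all 3′UTR sites. By cluster it was below the 55.9% of all clusters. The 3′UTR share of 86.5% became 93.6% with at least 20 deletions per site, 50% with at least 10% of tags deleted and 72% with 1 site per cluster, and with at least 10% of tags deleted 4 in place of 8 genes kept a 3′UTR site. The share within 100 nt of an end, 77.8%, became 55.6% for 50 nt, 62.2% for representative ends only and 44.4% by cluster. It became 89.7% for sites with under 30% of tags deleted, a setting chosen after seeing the data, against 72.7% of all such 3′UTR sites. Whole-list shares for 50 nt and for representative ends are not given here. The share of windows with AATAAA or ATTAAA, 51.1%, became 17.8% with 10 nt on each side and 20% with AATAAA only, and the AUA share of 11.1% became 2.22% without matches that contain AATAAA. The median deletion percentage rose from 0.739% to 2.98% with 1 site per cluster. Leaving out EGFR, also chosen after seeing the data, gave 86.2%, 80%, 56%, 16% and 0.817% for the 3′UTR share, end share, signal share, AUA share and median. Joining sites within 10 nt gave 24 clusters in place of 18. No paired analysis was possible because the replicates were pooled before the sites were called. Without counts per replicate, a site can rest on either library, and shallow sites, with 7 to 57 tags where every 3′UTR tag carried the deletion, have wide intervals.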

Other observations

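Several ligands and inhibitors of the receptors described above had dense sites near an end. They were chosen after their values were seen. GAS6, the ligand of AXL, had 9 3′UTR sites, all within 100 nt of an end, the leading one with 354 deletions in 36017 tags (0.983%) 16 nt before it. The EGFR ligands HBEGF and AREG had 6 and 4 sites, also all in that range, and their leading sites had 366 deletions in 9816 tags (3.73%) and 373 in 17207 (2.17%). ERRFI1, a feedback inhibitor of EGFR, had 14 3′UTR sites with 2835 deletions, above the 1879 of EGFR, and SPRY2, a feedback inhibitor of receptor signalling, had 8 with 2100.

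On the strand opposite to the receptor genes, 3 sites fell within the gene bodies and were not counted. In the FGFR1 body 2 of them belonged to the 3′UTR of LETM2, with 56 deletions in 873 tags (6.41%) and 11 in 14 (78.6%). The other, in the DDR2 body, was in no gene on its own strand, with 13 deletions in 13 tags.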
